A study of Mus musculus with 25 samples.

Results

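The enzymes and regulators of sterol and fatty acid synthesis were followed as a set of 30 genes, chosen by gene symbol from the 24537 gene models of a mouse count table. The set held 18 enzymes of the sterol pathway, 5 genes that regulate that pathway or carry its product, and 7 enzymes of fatty acid synthesis. All 30 genes were in the table, each with a single copy in the genome, and all 30 passed the filter on low counts that left 16961 genes for testing.

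RNA was sequenced from 25 libraries of 200 sorted cells each, all from C57BL6 mice, on a high fat diet (HFD, 45% fat) or a control diet (CD, 10% fat). The labels name no transgene, age or diet duration. A total of 4 macrophage populations came from white adipose tissue (eWAT in the titles), with 2 HFD and 2 CD libraries each. Pop1 was sorted as Tim4+ with low MHCII and pop2 as Tim4+ with high MHCII, where Tim4 is a receptor for dying cells found on resident macrophages. Pop4 was sorted as MHCII+, Tim4- and CD11c+, and pop3 as Tim4-, CD11c- and high for MHCII. Monocytes were sorted from blood by CD115 and Ly6C, with 3 HFD and 6 CD libraries, of which 3 are titled CD and 3 CD-CD. Collagenase was used to free the adipose cells, with flavopiridol added to block transcription, and no such step is given for blood, so tissue, gate and handling cannot be told apart between adipose cells and monocytes. Every CD library of adipose cells carries CD-CD in its title and no HFD library does, so diet and title series cannot be told apart there. The labels do not say that libraries came from separate animals, and p-values may then measure only technical spread.

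Cells make cholesterol from acetyl-CoA through mevalonate, squalene and lanosterol, and make saturated and monounsaturated fatty acids from the same precursor. The membrane-bound transcription factors SREBP-2 (Srebf2) and SREBP-1 (Srebf1) switch on these genes when the escort protein Scap carries them out of the endoplasmic reticulum. Insig1 holds Scap back when sterols are plentiful. Macrophages in fat tissue take up lipid from dying adipocytes and can also make sterols and fatty acids themselves.

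SREBP proteins bind sterol regulatory elements in promoters, usually beside binding sites for NF-Y and Sp1. The promoters of the 6 sterol enzymes that passed a test in more than 1 comparison are shown, with that of Hmgcs1. It holds the only match to the sterol element among the 24 genes of the set with a RefSeq start site. Each is given as the 250 bases before the RefSeq start site (GRCm38.p6), 5′ to 3′ on the gene's own strand. Capitals mark matches on either strand to a sterol regulatory element (SRE, TCACNCCAC), an E-box (CACGTG), an NF-Y box (CCAAT, or ATTGG on the other strand) or a GC box (GGGCGG, or CCGCCC). The Hmgcs1 window is chr13:119690101-119690350 (plus strand), that of Cyp51 chr5:4104698-4104947 (minus), that of Msmo1 chr8:64733579-64733828 (minus), that of Sc5d chr9:42264301-42264550 (minus), that of Nsdhl chrX:72918271-72918520 (plus), those of the 2 Pmvk start sites chr3:89454291-89454540 and chr3:89459321-89459570 (plus), and that of Lss chr10:76531355-76531604 (plus).
Hmgcs1: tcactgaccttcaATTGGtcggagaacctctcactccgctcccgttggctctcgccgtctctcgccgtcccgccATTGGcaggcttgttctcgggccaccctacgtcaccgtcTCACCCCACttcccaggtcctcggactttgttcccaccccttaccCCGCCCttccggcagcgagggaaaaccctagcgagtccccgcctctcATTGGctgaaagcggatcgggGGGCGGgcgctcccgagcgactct
Cyp51: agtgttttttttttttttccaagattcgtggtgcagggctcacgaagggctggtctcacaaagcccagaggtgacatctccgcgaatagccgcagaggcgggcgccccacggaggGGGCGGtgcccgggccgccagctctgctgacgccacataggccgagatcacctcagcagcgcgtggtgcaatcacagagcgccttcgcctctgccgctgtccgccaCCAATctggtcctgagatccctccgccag
Msmo1: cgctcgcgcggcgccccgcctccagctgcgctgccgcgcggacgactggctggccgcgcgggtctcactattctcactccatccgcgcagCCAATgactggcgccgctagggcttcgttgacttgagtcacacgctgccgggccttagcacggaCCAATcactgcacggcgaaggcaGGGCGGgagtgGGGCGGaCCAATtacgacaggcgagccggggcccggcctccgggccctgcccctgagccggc
Sc5d: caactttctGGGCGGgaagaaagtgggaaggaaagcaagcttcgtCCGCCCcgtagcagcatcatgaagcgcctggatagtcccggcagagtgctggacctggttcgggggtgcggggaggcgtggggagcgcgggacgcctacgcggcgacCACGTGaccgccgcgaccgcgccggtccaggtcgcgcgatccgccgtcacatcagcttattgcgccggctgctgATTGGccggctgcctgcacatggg
Nsdhl: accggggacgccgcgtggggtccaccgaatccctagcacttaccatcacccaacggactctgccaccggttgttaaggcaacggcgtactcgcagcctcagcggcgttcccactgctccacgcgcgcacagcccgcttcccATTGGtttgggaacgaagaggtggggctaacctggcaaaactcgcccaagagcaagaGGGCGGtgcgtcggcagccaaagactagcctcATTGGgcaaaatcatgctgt
Pmvk, upstream start: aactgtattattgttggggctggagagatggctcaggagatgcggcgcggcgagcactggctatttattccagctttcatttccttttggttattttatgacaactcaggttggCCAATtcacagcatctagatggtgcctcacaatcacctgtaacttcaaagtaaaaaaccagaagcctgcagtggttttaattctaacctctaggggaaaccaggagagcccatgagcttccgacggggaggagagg
Pmvk, downstream start: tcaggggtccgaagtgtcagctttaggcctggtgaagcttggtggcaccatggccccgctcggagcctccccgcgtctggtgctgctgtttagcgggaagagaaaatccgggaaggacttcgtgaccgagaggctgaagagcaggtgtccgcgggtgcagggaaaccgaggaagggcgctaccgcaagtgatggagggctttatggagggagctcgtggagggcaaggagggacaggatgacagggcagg
Lss: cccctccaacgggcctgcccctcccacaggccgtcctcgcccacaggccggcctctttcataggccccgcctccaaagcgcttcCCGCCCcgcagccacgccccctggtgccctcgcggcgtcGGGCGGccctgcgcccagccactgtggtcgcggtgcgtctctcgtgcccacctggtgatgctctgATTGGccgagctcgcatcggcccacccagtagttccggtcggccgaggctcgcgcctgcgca

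RefSeq start sites were matched for 24 of the 30 genes, and the genes without an entry were Fdps, Fdft1, Sqle, Stard4, Scd1 and Scd2. The SRE letters stood in the Hmgcs1 window, from base -137 relative to the start, and in no other matched window of the set. They stood in 1.05% of all 32851 promoter windows in the RefSeq table and in 1.22% of all genes with a window. An NF-Y box stood in 19 of 24 genes, among them 14 of 15 sterol enzymes and 2 of 5 fatty acid enzymes, against 33.8% of all windows and 37.5% of all genes with a window. A GC box stood in 20 of 24 genes, among them again 14 of 15 sterol and 2 of 5 fatty acid enzymes, against 32.7% of all windows and 35.4% of all genes. An E-box stood in 5 genes (Hsd17b7, Sc5d, Dhcr7, Scap and Insig1), against 6.02% of all windows and 6.86% of all genes. The printed windows of Hmgcs1 and Msmo1 held 3 NF-Y boxes each, that of Nsdhl held 2, and those of Cyp51, Sc5d and Lss held 1 each. Of the 2 Pmvk windows, the upstream one held 1 NF-Y box and the downstream one none of the 4 motifs. The Pmvk model that was counted starts at chr3:89459118. The downstream window lies inside that model and the upstream window ends well before it, so neither adjoins the start of the counted model. No 2 matches overlapped in the printed windows, and a match or its absence describes letters only. Genes with several start sites were counted once if any of their windows held the motif.

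Libraries held 3752840 to 9336400 counts, and 3 counts, taken as the floor of detection, were worth 0.342 to 0.700 CPM. CPM are counts scaled to a common library size, here adjusted by TMM factors of 0.893 to 1.146. Intervals and floors of this kind cover counting error only. The sort genes followed the labels: Timd4 averaged 376 ± 206 CPM in Tim4+ and 3.0 ± 5.12 CPM in Tim4- libraries (SD, n = 8 each), and Itgax, which encodes CD11c, averaged 185 ± 5.06 CPM in pop4 and 20.1 ± 18.4 CPM in pop3 (SD, n = 4 each). C1qa, a complement gene of tissue macrophages, averaged 464 ± 184 CPM in adipose libraries (n = 16) and 0.265 ± 0.218 CPM in monocytes (SD, n = 9). Summed CPM of olfactory and vomeronasal receptor genes, which belong to sensory neurons, spanned 245 to 686 in Tim4+, 79.6 to 190 in pop4, 194 to 659 in pop3 and 93.1 to 256 in monocyte libraries.

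Levels per kilobase of transcript spanned a wide range within the set. On the scale of mean CPM per kilobase over all libraries, Msmo1, which oxidises a methyl group of lanosterol's product, led with 109. Ebp, a sterol isomerase, followed with 102 and Acly, which splits citrate to give cytosolic acetyl-CoA, with 47.9. The lowest were Acaca, the carboxylase that makes malonyl-CoA, with 0.870, and Idi1, which isomerises isopentenyl diphosphate, with 0.794. Idi1 was at or under the floor of 3 counts in 11 of 25 libraries, 10 of them adipose.

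Paired libraries of 1 population and diet agreed closely for some genes and poorly for others. The median gap between the 2 libraries of an adipose group, on the log2(CPM + 1) scale, was 0.57 over all genes tested. It was 0.38 for Acss2, 0.40 for Acly, 0.44 for Fdft1 and 0.50 for Hmgcs1, but 2.30 for Sc5d, 2.29 for Acat2, 2.07 for Stard4 and 1.92 for Nsdhl. Wide gaps between paired libraries of 200 cells thus stand behind the values of these last 4 genes. A low median can also hide a wide pair. The largest gap of Acss2 over the 8 groups was 2.76, against a median largest gap of 1.96 over all genes tested.

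**Figure D1:**
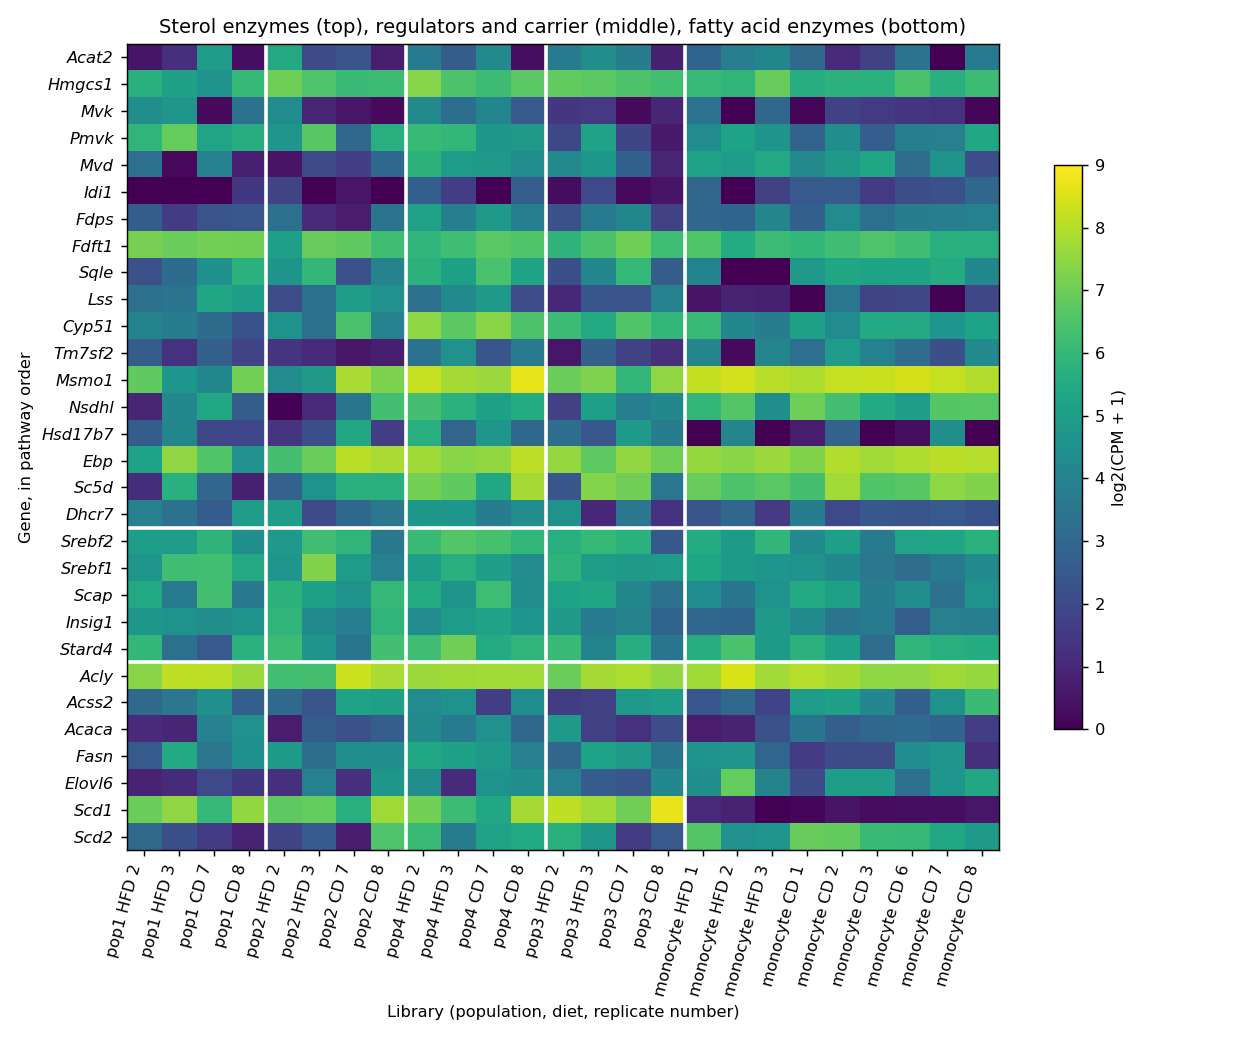
Level of each of the 30 genes (rows, in pathway order, as log2(CPM + 1)) in each of the 25 libraries (columns). White lines part the populations and the branches. The Scd1 row is dark in all 9 monocyte libraries (0 to 1.16 CPM) and bright in all 16 adipose libraries (39.8 to 418 CPM), and the Cyp51 row is darker in Tim4+ libraries (3.80 to 83.7 CPM) than in Tim4- libraries (43.9 to 177 CPM).

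The summed level of the sterol branch was highest in pop4, the CD11c+ macrophages, and the other adipose populations overlapped. Summed over the 18 enzymes, pop1 averaged 540.4 ± 71.2 CPM and pop2 685 ± 209.9 CPM, whereas pop4 averaged 1242 ± 211 CPM and pop3 725 ± 129.6 CPM (SD, n = 4 each). Monocytes averaged 993 ± 96.6 CPM (SD, n = 9). Per library, the sums were 488 and 637 CPM in the HFD and 486 and 551 CPM in the CD libraries of pop1. They were 449 and 582 CPM in the HFD and 918 and 792 CPM in the CD libraries of pop2. Pop4 had 1464 and 1051 CPM in HFD and 1073 and 1380.3 CPM in CD libraries. Pop3 had 638 and 821 CPM in HFD and 850.1 and 591 CPM in CD libraries. All 4 pop4 libraries thus lay above all 12 other adipose libraries, while 2 of them fell within the monocytes' range of 836 to 1153 CPM. Sums are given without a test, and in sorted cells counted in bulk, fewer cells that express a gene and less RNA per cell cannot be told apart.

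**Figure D2:**
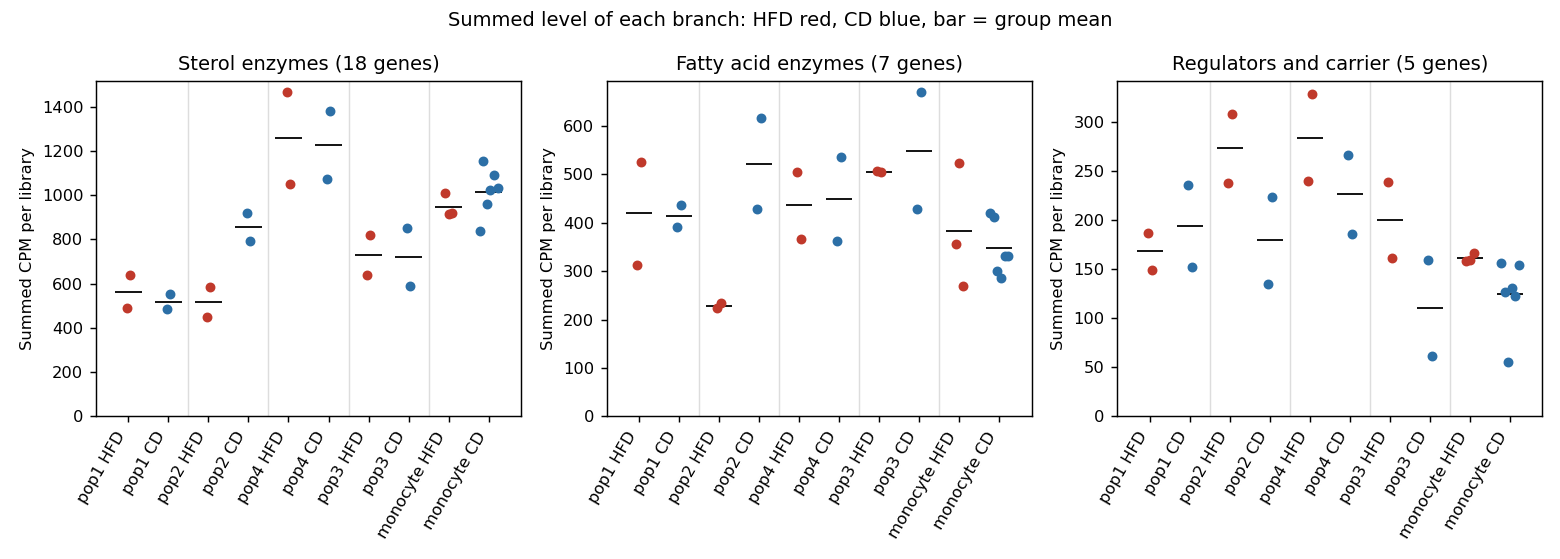
Summed CPM of the 18 sterol enzymes, the 5 regulators and carrier and the 7 fatty acid enzymes, 1 point a library, by population and diet (HFD red, CD blue), with bars at group means. In the sterol panel the 4 pop4 libraries (1051 to 1464 CPM) stand above every other adipose library (449 to 918 CPM).

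Tim4+ macrophages were first set against Tim4- macrophages, as the mean of pop1 and pop2 minus the mean of pop4 and pop3. Of the 30 genes, 4 passed the test (edgeR quasi-likelihood F test, Benjamini-Hochberg adjusted p under 0.05), against 15.1% of all 16961 genes tested (7.26% higher, 7.79% lower). The 4 genes are 13.3% of the set, a share near the background, so the count by itself is no result about the set. DESeq2 called 9 of the 30 (1 higher, 8 lower), against 24.6% of all genes it tested. All 4 were sterol enzymes: Cyp51, Sc5d and Msmo1 were lower in Tim4+ cells and Pmvk was higher. In all, 21 of 30 log2 differences were negative, with a median of -0.68 against 0.14 over all genes, and the median of the 18 sterol enzymes was -1.12.

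Cyp51, the demethylase that removes the first methyl group of lanosterol, was lower in Tim4+ cells by -2.57 on the log2 scale (SE 0.43, edgeR adjusted p = 3.17e-04). It stood at 15.8 and 12.7 CPM in the HFD and 8.02 and 3.80 CPM in the CD libraries of pop1. Pop2 had 22.8 and 9.10 CPM in HFD and 83.7 and 14.8 CPM in CD libraries. Pop4 had 177 and 106 CPM in HFD and 169.9 and 87.6 CPM in CD libraries, and pop3 had 71.5 and 43.9 CPM in HFD and 93.9 and 61.8 CPM in CD libraries. A single Tim4+ library, pop2 CD 7, lay in the Tim4- range, and the other 7 were below every Tim4- library. The call held in each of the 9 alternative settings tried and in each of the 16 fits without 1 library (highest adjusted p 0.0266 and 0.00173 by edgeR).

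Msmo1, which oxidises the next methyl groups, was lower by -1.44 (SE 0.33, edgeR adjusted p = 0.00583). Its CPM in pop1 were 110.0 and 25.3 in HFD and 17.5 and 139 in CD libraries, and in pop2 19.4 and 28.5 in HFD and 229 and 149 in CD libraries. Those in pop4 were 293 and 219.9 in HFD and 199.6 and 409 in CD libraries, and those in pop3 126 and 153 in HFD and 61.4 and 180.0 in CD libraries. The groups overlapped: 4 Tim4+ libraries were below every Tim4- library and the other 4 were within the Tim4- range. Without both pop2 HFD libraries, the Msmo1 difference was -0.65 (edgeR adjusted p = 0.315), and among CD groups alone it was -0.66 (adjusted p = 0.592).

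Sc5d, a desaturase of the last steps, was lower by -2.57 (SE 0.70, edgeR adjusted p = 0.0164). It had 1.24 and 51.7 CPM in HFD and 6.93 and 0.731 CPM in CD libraries of pop1, and 6.15 and 23.8 CPM in HFD and 51.2 and 51.9 CPM in CD libraries of pop2. It had 139 and 109.8 CPM in HFD and 41.4 and 222 CPM in CD libraries of pop4, and 4.26 and 162 CPM in HFD and 131 and 10.6 CPM in CD libraries of pop3. High and low libraries stood side by side within pop3, and the groups overlapped. The edgeR adjusted p was 0.115 without pop3 HFD 3, 0.0666 without pop3 CD 7 and 0.0512 without pop4 CD 8.

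Pmvk, which phosphorylates mevalonate phosphate, went the other way, with 1.75 (SE 0.57, edgeR adjusted p = 0.0410). It had 57.7 and 118 CPM in HFD and 37.2 and 47.5 CPM in CD libraries of pop1, and 24.8 and 101 CPM in HFD and 7.28 and 50.5 CPM in CD libraries of pop2. Pop4 overlapped these values with 65.5 and 60.5 CPM in HFD and 26.3 and 27.7 CPM in CD libraries, and the low libraries were those of pop3, with 2.84 and 35.4 CPM in HFD and 2.67 and 0.567 CPM in CD. The call was lost without any 1 of 11 libraries (pop1 HFD 3, CD 7 and CD 8, pop2 HFD 3 and CD 8, the 4 of pop4, pop3 HFD 2 and CD 8; edgeR adjusted p 0.0634 to 0.151). With the summed receptor background as a covariate, 1 of the 4 calls remained, Cyp51, and with the adipose groups fitted alone 2 remained. The count rose to 6 without pop1 CD 7 and 7 without pop2 CD 8, and was 2 without pop4 CD 8.

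Among sterol enzymes that missed the threshold, Mvd had a difference of -2.02 (SE 0.73), Nsdhl -1.77 (SE 0.67), Fdps -1.61 (SE 0.63) and Hmgcs1 -0.69 (SE 0.26), with edgeR adjusted p of 0.0626 to 0.0862. Hmgcs1, which makes the precursor of mevalonate, had 51.6 and 34.1 CPM in HFD and 23.5 and 64.5 CPM in CD libraries of pop1, and 127 and 89.9 CPM in HFD and 68.4 and 71.2 CPM in CD libraries of pop2. It had 163 and 88.8 CPM in HFD and 70.9 and 102 CPM in CD libraries of pop4, and 112 and 105 CPM in HFD and 89.0 and 76.3 CPM in CD libraries of pop3. The low Hmgcs1 values were those of pop1, and pop2 overlapped both Tim4- populations. Sqle, the epoxidase of squalene, had 3.72 and 8.12 CPM in HFD and 21.9 and 53.2 CPM in CD libraries of pop1, and 24.4 and 61.2 CPM in HFD and 3.75 and 15.2 CPM in CD libraries of pop2. It had 54.6 and 33.8 CPM in HFD and 83.7 and 35.5 CPM in CD libraries of pop4, and 3.55 and 16.8 CPM in HFD and 62.3 and 5.29 CPM in CD libraries of pop3. Its groups covered much the same range.

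Fdft1, Ebp, Fdps, Dhcr7, Hsd17b7, Mvk and Acat2 passed edgeR's test in no comparison. Fdft1, which joins farnesyl units into squalene, was steady and highest in pop1, with 123 to 141 CPM there, 32.7 to 119.5 CPM in pop2, a mean of 82.4 ± 18.5 CPM in pop4 and 56.2 to 129 CPM in pop3, against 45.8 to 93.4 CPM in monocytes. Ebp averaged 129 ± 89.6 CPM in Tim4+ and 182 ± 49.4 CPM in Tim4- libraries (SD, n = 8 each; difference -0.67, SE 0.28, edgeR adjusted p = 0.106). Fdps, the farnesyl diphosphate synthase, averaged 4.58 ± 3.48 CPM in Tim4+ and 15.6 ± 11.2 CPM in Tim4- libraries, with its highest mean in pop4 (22.6 ± 10.7 CPM, n = 4). Dhcr7, a reductase of the last steps, averaged 14 ± 11.1 CPM in Tim4+ and 15.2 ± 10.3 CPM in Tim4- libraries, a difference of 0.01 (SE 0.63). Hsd17b7, a keto reductase, averaged 9.36 ± 13.4 CPM in Tim4+ and 18 ± 15.7 CPM in Tim4- libraries. Mvk, the kinase of mevalonate, averaged 9.59 ± 10.7 CPM in Tim4+ and 6.62 ± 7.19 CPM in Tim4- libraries. Acat2, a thiolase that joins acetyl-CoA units, averaged 10.2 ± 16.2 CPM in Tim4+ and 10.4 ± 7.63 CPM in Tim4- libraries. Mvk was at or under the floor of 3 counts in 7 libraries, Hsd17b7 in 5 (all monocytes) and Acat2 in 4.

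When the enzymes were parted at lanosterol, a division chosen after these values were seen, the means of Tim4+ and Tim4- libraries lay further apart in the later than in the earlier steps, which was not tested. The 8 enzymes after lanosterol (Cyp51 to Dhcr7) summed to 310 ± 198 CPM in Tim4+ and 666 ± 248.9 CPM in Tim4- libraries (SD, n = 8 each). By population they summed to 223 ± 62.7 CPM in pop1, 396 ± 259 CPM in pop2, 861 ± 199 CPM in pop4 and 471 ± 57.3 CPM in pop3. The groups overlapped, as both pop2 CD libraries (688.5 and 540.7 CPM) lay above every pop3 library (416 to 528 CPM). The 10 enzymes up to lanosterol (Acat2 to Lss) summed to 303 ± 50.4 CPM in Tim4+ and 318 ± 96.7 CPM in Tim4- libraries. Gene by gene, however, 6 of these 10 log2 differences were also negative, with a median of -0.763. Of the 8 later enzymes 7 were negative, with a median of -1.47. The near-equal sums of the earlier steps thus do not mean that each of their genes was alike. Monocytes had 759 ± 94.7 CPM in the later and 233 ± 38.3 CPM in the earlier steps (SD, n = 9).

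Genes of the cell cycle moved with the same contrast. Of 20 proliferation genes, 15 were lower in Tim4+ cells by the same test, against 7.79% of all genes tested. Their sums were 207 to 436 CPM in Tim4+ libraries, 1699 to 2508 CPM in pop4 and 600.1 to 1511 CPM in pop3. No library was at 0 for Mki67 or Top2a. Monocytes had proliferation sums of 121 to 271 CPM. Markers of other blood cells moved too: 3 of 4 tested B cell genes (of 5) were lower in Tim4+ cells (7.79% of all genes). Their sums were 1.32 to 50.8 CPM in Tim4+ and 3.13 to 117 CPM in Tim4- libraries. Of 6 red cell genes 5 were higher in Tim4+ cells (7.26% of all genes), with sums of 1.30 to 635 CPM in Tim4+ and 1.44 to 308 CPM in Tim4- libraries. The B cell gene Pax5 had a median of 0 CPM in Tim4+ libraries, and the part of proliferation and of these cells in the sterol differences was not tested.

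**Figure D3:**
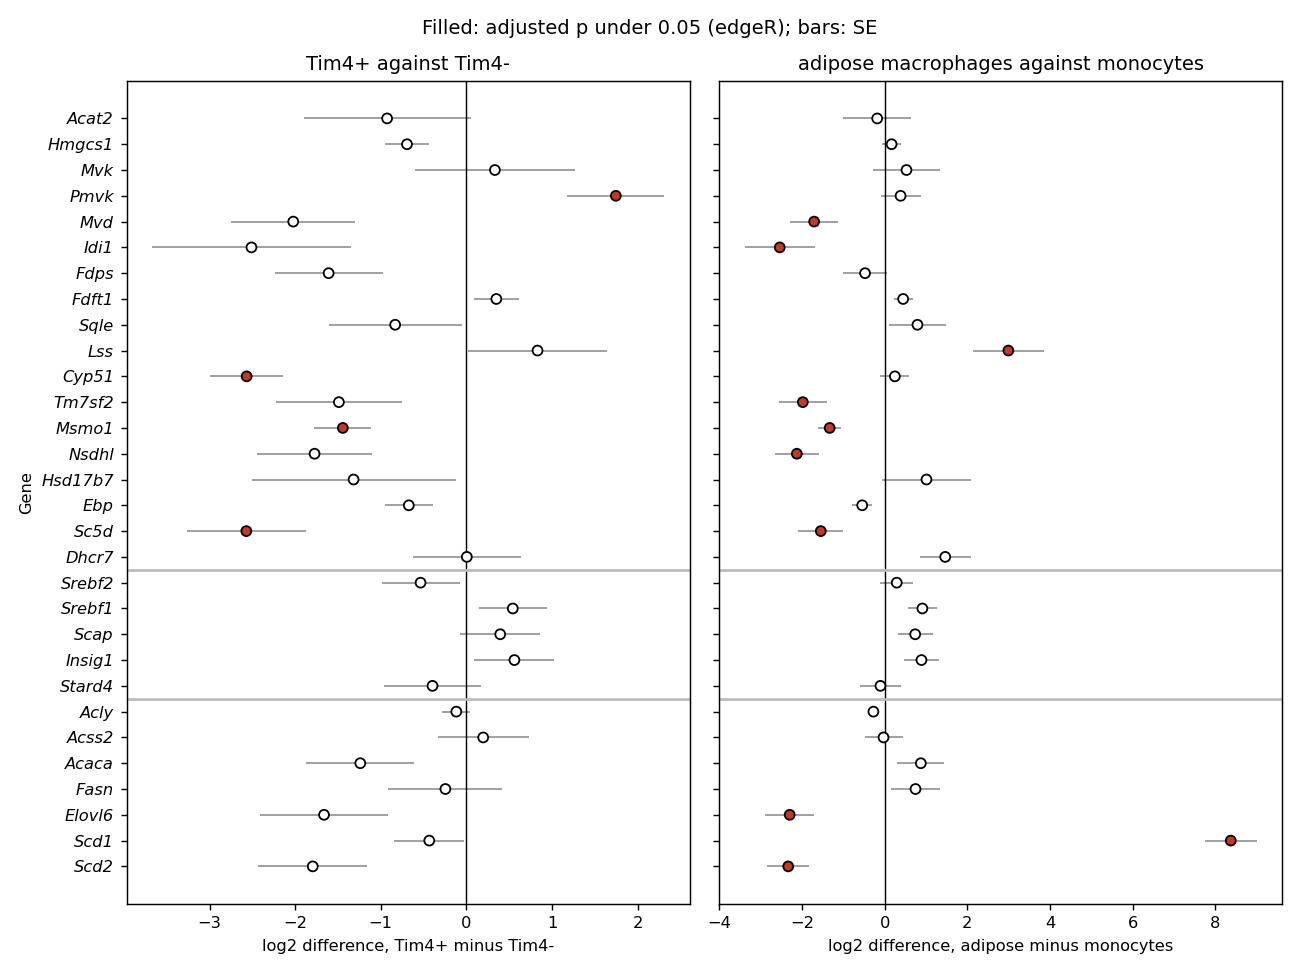
Log2 difference of each gene (points) with its SE (bars), Tim4+ minus Tim4- on the left and adipose macrophages minus monocytes on the right. Grey lines part the branches, and filled points passed edgeR's test at an adjusted p of 0.05. Cyp51, Sc5d and Msmo1 lie left of zero on the left panel, and Scd1 stands apart at 8.37 on the right panel.

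Within Tim4+ cells, pop1 (low MHCII) was set against pop2 (high MHCII), and no gene of the set passed, against 0.466% of all genes tested (0.283% higher, 0.183% lower). By an unadjusted edgeR p under 0.05, 6 genes differed. DESeq2 called 1, against 3.41% of all genes it tested, and edgeR also called 1 without pop1 HFD 3. The differences with the lowest p were those of Acly (0.66, SE 0.23, edgeR adjusted p = 0.275), Hmgcs1 (-1.0, SE 0.36, adjusted p = 0.317) and Cyp51 (-1.61, SE 0.59, adjusted p = 0.319).

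Within Tim4- cells, pop4 (CD11c+) was set against pop3 (CD11c-). A single gene passed, Pmvk, higher in pop4 by 2.88 (SE 0.84, edgeR adjusted p = 0.0443), against 6.57% of all genes tested (2.32% higher, 4.25% lower). That call was lost without any 1 of the 8 libraries except pop3 HFD 3 (edgeR adjusted p 0.0564 to 0.167), and with the receptor background as a covariate the difference was 1.61 (adjusted p = 0.807). In all, 26 of the 30 differences were positive, with a median of 0.98 against -0.17 over all genes, and 16 of the 18 sterol enzymes were positive with a median of 1.34. Examples that did not pass were Mvk (3.58, SE 1.38, adjusted p = 0.109), Msmo1 (1.11, SE 0.47, adjusted p = 0.140) and Cyp51 (1.01, SE 0.57, adjusted p = 0.269). The receptor background was lower in pop4 than in pop3 (79.6 to 190 against 194 to 659 CPM).

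Adipose macrophages as a whole (mean of 8 groups) were then set against blood monocytes (mean of 2 groups). Of the 30 genes, 10 passed edgeR's test, 2 higher and 8 lower in adipose cells, against 37% of all genes tested (18.5% in each direction). The set's 33.3% is near that background, and its median of 0.20 was close to the 0.19 of all genes. Scd1 and Lss were higher. Msmo1, Nsdhl, Tm7sf2, Idi1, Mvd and Sc5d of the sterol branch and Scd2 and Elovl6 of the fatty acid branch were lower. With DESeq2's size factors in edgeR (RLE scaling), which moved the median of all genes to 0.35, 5 genes were higher and 8 lower. DESeq2 itself called 15 of the 30 (7 higher, 8 lower), against 46.7% of all genes it tested.

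Scd1 and Scd2 encode closely related stearoyl-CoA desaturases, which put the double bond into oleate, and lie 87.588 kb apart on chromosome 19 (mm10). Scd1 was higher in adipose macrophages by 8.37 (SE 0.63, edgeR adjusted p = 1.62e-09). It had 125 and 182 CPM in HFD and 64.4 and 184 CPM in CD libraries of pop1, and 107 and 116 CPM in HFD and 50.8 and 210.0 CPM in CD libraries of pop2. It had 138 and 71.6 CPM in HFD and 39.8 and 219 CPM in CD libraries of pop4, and 279 and 215 CPM in HFD and 131 and 418 CPM in CD libraries of pop3. The 9 monocyte libraries held 28 Scd1 counts in all, between 0 and 9 each, with a lowest, median and highest level of 0, 0.254 and 1.16 CPM. Every adipose library was far above every monocyte library, while 6 monocyte libraries were at or under the floor of 3 counts. The size of the fitted difference therefore depends on the few monocyte counts.

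Scd2 went the other way, lower in adipose macrophages by -2.34 (SE 0.50, edgeR adjusted p = 0.00118). Pop1 had 7.71 and 3.57 CPM in HFD and 2.01 and 0.877 CPM in CD libraries, and pop2 had 2.58 and 5.14 CPM in HFD and 0.662 and 91.8 CPM in CD libraries. Pop4 had 70.1 and 12.8 CPM in HFD and 35.7 and 43.0 CPM in CD libraries, and pop3 had 51.7 and 26.0 CPM in HFD and 1.96 and 4.72 CPM in CD libraries. Monocytes had a lowest, median and highest level of 22.4, 64.0 and 119 CPM. Pop1 and 3 of 4 pop2 libraries were below every monocyte library, while pop4 and pop3 overlapped monocytes. As a share of the summed CPM of both genes, Scd1 took 52.8% to 99.5% in adipose libraries and 0% to 3.7% in monocyte libraries. How reads that match both desaturase genes were counted is not given in the sources used here.

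**Figure D4:**
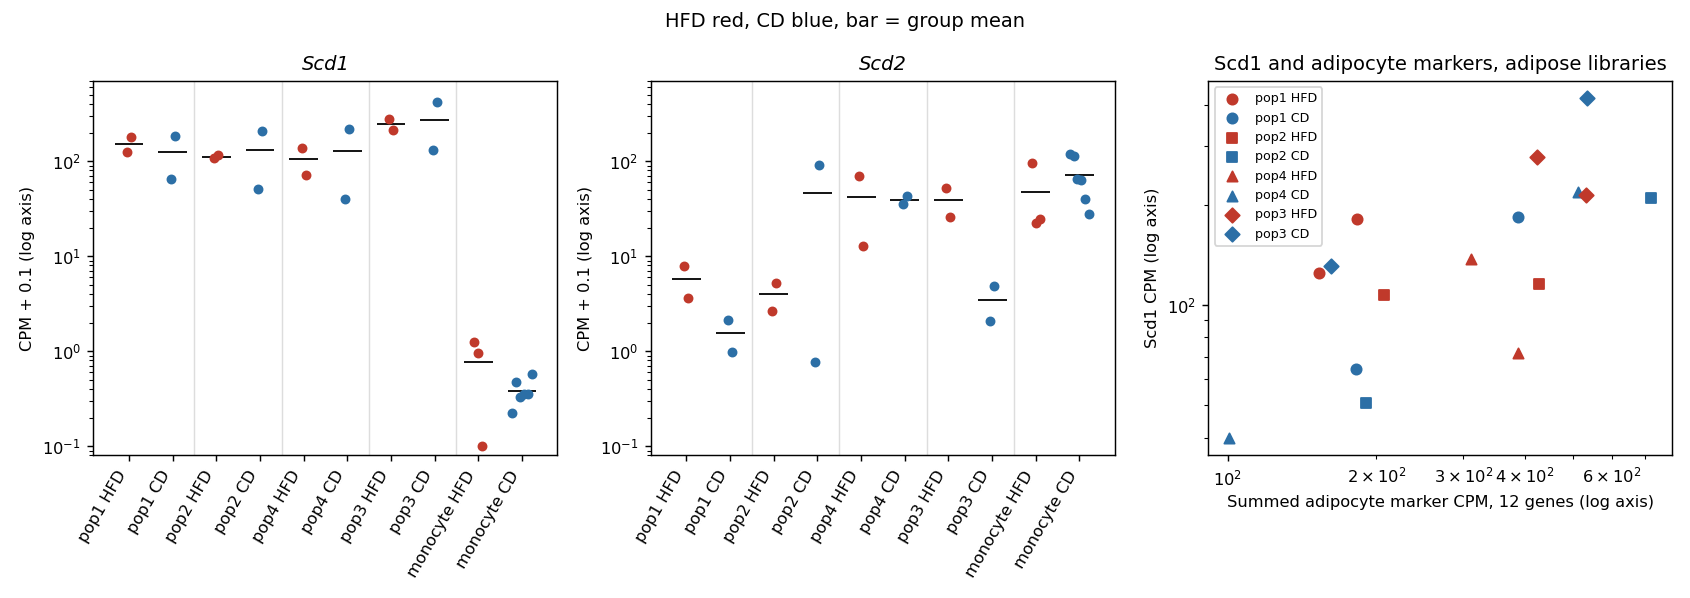
Scd1 (left) and Scd2 (middle) in every library by population and diet, as CPM + 0.1 on a log axis with bars at group means, and Scd1 against the summed CPM of 12 adipocyte genes in the 16 adipose libraries on log axes (right). Scd1 stands at 39.8 to 418 CPM in adipose and 0 to 1.16 CPM in monocyte libraries, while Scd2 is lowest in pop1 (0.877 to 7.71 CPM).

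Adipocytes also make Scd1, and their markers moved with it. Of 12 adipocyte genes, 10 were higher in adipose libraries than in monocytes, against 18.5% of all genes tested. Their sums were 101 to 721 CPM in adipose and 3.40 to 11.9 CPM in monocyte libraries. Adipoq, the adipocyte hormone adiponectin, spanned 0.397 to 176 CPM in adipose libraries and was at 0 in 6 of 9 monocyte libraries, and Plin1, which coats their lipid droplets, spanned 0 to 3.80 CPM in adipose libraries. Across the 16 adipose libraries, on the log2(CPM + 1) scale, Scd1 followed the adipocyte sum with a Pearson r of 0.70 (permutation p = 0.00298, adjusted 0.0209 over the 7 fatty acid enzymes) and a Spearman rho of 0.69 (permutation p = 0.00368, adjusted 0.0258). Without pop1 HFD 2 and pop4 CD 7, r was 0.62. Within the 8 HFD libraries r was 0.21 and within the 8 CD libraries 0.87, and the difference between the diets was not tested. In CD, the number 8 library of every adipose population was above all number 7 libraries in both measures. Adipocyte sums were 387 to 721 CPM in CD 8 and 101 to 191 CPM in CD 7 libraries. Scd1 was at 184 to 418 CPM in CD 8 and 39.8 to 131 CPM in CD 7 libraries. Libraries of the same number may share an animal and are then not independent, whereas the permutation shuffled all 16 as independent. The adjusted p of the other 6 enzymes was 0.254 or more. The part of adipocyte RNA in the Scd1 difference was not tested. Stromal progenitor genes were also higher in adipose libraries (9 of 10, against 18.5% of all genes tested). All 6 red cell genes were lower in adipose libraries (against 18.5% of all genes tested), with sums of 1.30 to 635 CPM in adipose and 406 to 1414 CPM in monocyte libraries. Lower too were 4 of 5 tested T cell genes (of 6), with sums of 1.24 to 42.5 CPM in adipose and 0 to 238 CPM in monocyte libraries. The other tested T cell gene, Cd4, was higher in adipose libraries by 3.52 (edgeR adjusted p = 0.00937).

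Lss, which closes squalene epoxide into lanosterol, was higher in adipose macrophages by 2.99 (SE 0.86, edgeR adjusted p = 0.0105). It had 9.09 and 10.1 CPM in HFD and 37.9 and 32.0 CPM in CD libraries of pop1, and 3.37 and 8.87 CPM in HFD and 31.8 and 22.5 CPM in CD libraries of pop2. It had 9.12 and 19.0 CPM in HFD and 28.2 and 3.36 CPM in CD libraries of pop4, and 1.06 and 4.33 CPM in HFD and 3.91 and 14.5 CPM in CD libraries of pop3. Monocytes had a lowest, median and highest level of 0, 0.861 and 10.6 CPM. Most adipose libraries were above most monocyte libraries, with overlap between 1.06 and 10.6 CPM.

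The sterol enzymes that were lower in adipose macrophages were not low in every population. Msmo1 (-1.33, SE 0.27, edgeR adjusted p = 6.99e-04) averaged 73.0 ± 60.7 CPM in pop1, 106 ± 101 CPM in pop2, 280.3 ± 94.6 CPM in pop4 and 130.1 ± 50.9 CPM in pop3 (SD, n = 4 each), against 289.5 ± 36.2 CPM in monocytes (n = 9). Only pop4 overlapped the monocytes' 238 to 344 CPM, and the 12 libraries of the other populations were all below it. Nsdhl, a dehydrogenase that acts on the same methyl groups, differed by -2.13 (SE 0.53, adjusted p = 0.00368). Its CPM were 0.964 and 16.7 in HFD and 40.3 and 5.26 in CD libraries of pop1, 0 and 1.17 in HFD and 10.4 and 78.9 in CD libraries of pop2, 78.4 and 53.4 in HFD and 34.0 and 46.0 in CD libraries of pop4, and 2.37 and 32.8 in HFD and 13.5 and 17.2 in CD libraries of pop3. Monocyte libraries had a lowest, median and highest Nsdhl level of 21.3, 78.7 and 127 CPM, which all pop4 libraries and some of the other 12 overlapped.

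Tm7sf2, a sterol reductase, differed by -1.98 (SE 0.59, edgeR adjusted p = 0.0122). It spanned 0.441 to 5.84 CPM over Tim4+ libraries, 4.31 to 22.6 CPM in pop4 and 0.473 to 5.69 CPM in pop3, against 0.172, 14.4 and 30.2 CPM as the lowest, median and highest of monocytes. Mvd, which decarboxylates mevalonate diphosphate, differed by -1.71 (SE 0.58, adjusted p = 0.0248) and spanned 0.162 to 14.8 CPM over Tim4+ libraries, 19.6 to 55.8 CPM in pop4 and 0.945 to 26.0 CPM in pop3, against 3.41, 27.7 and 42.7 CPM in monocytes. Both genes were highest in pop4 among the adipose cells and overlapped monocytes there.

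Sc5d, with the adipose values given above, differed by -1.55 (SE 0.54, edgeR adjusted p = 0.0305) against a monocyte lowest, median and highest of 80.4, 104 and 213 CPM. Idi1 differed by -2.54 (SE 0.84, adjusted p = 0.0238), with 0 to 2.58 CPM in Tim4+, 0 to 5.65 CPM in pop4 and 0.178 to 2.96 CPM in pop3, against 0, 3.68 and 7.17 CPM in monocytes. These levels are close to the floor. Without 1 monocyte library some calls were lost: Idi1 (adjusted p = 0.114) and Sc5d (0.0631) without HFD 1, Elovl6 (0.0650) without HFD 2, and Mvd (0.0586) and Sc5d (0.0603) without HFD 3. With the receptor background as a covariate, 2 of the 10 calls remained, Scd1 and Scd2, and with only the monocyte libraries that share title numbers with the adipose libraries 6 genes were called, 5 of them among the 10.

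Elovl6, which lengthens palmitate, was lower in adipose macrophages by -2.30 (SE 0.60, edgeR adjusted p = 0.00531). It had 0.826 and 1.14 CPM in HFD and 2.92 and 1.75 CPM in CD libraries of pop1, the lowest of the populations, and 1.39 and 14 CPM in HFD and 1.32 and 26.0 CPM in CD libraries of pop2. It had 20.9 and 1.11 CPM in HFD and 23 and 20.0 CPM in CD libraries of pop4, and 14 and 5.12 CPM in HFD and 4.27 and 17.6 CPM in CD libraries of pop3. Monocytes had a lowest, median and highest level of 3.12, 25 and 116 CPM, and all pop1 libraries were below them. Fasn, the fatty acid synthase, spanned 4.82 to 44.5 CPM in adipose and 1.29 to 25 CPM in monocyte libraries, with medians of 21.7 and 6.65 CPM, and did not pass the test. Acaca averaged 9.41 ± 9.17 CPM in adipose and 4.96 ± 3.32 CPM in monocyte libraries (SD), a difference of 0.87 (SE 0.57, adjusted p = 0.233).

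No regulator passed edgeR's test between adipose macrophages and monocytes. Of the 5 differences 4 were positive, with a median of 0.74 against 0.19 over all genes. DESeq2 called Srebf1, Scap and Insig1 there, against 46.7% of all genes it tested. Srebf1 had a difference of 0.91 and an edgeR adjusted p of 0.0516. It had 24.9 and 73.8 CPM in HFD and 76.4 and 42.6 CPM in CD libraries of pop1, and 25 and 157 CPM in HFD and 30.02 and 14.3 CPM in CD libraries of pop2. It had 31.4 and 49.0 CPM in HFD and 31.1 and 19.2 CPM in CD libraries of pop4, and 57.1 and 31.4 CPM in HFD and 28.1 and 30.6 CPM in CD libraries of pop3. Monocyte levels had a lowest, median and highest of 8.28, 18.8 and 38.9 CPM, which the adipose libraries overlapped.

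Srebf2, the main activator of the sterol enzymes, averaged 34.9 ± 15.1 CPM in pop1, 43.1 ± 28.6 CPM in pop2, 76.8 ± 15.4 CPM in pop4 and 42.6 ± 26.1 CPM in pop3, against 36.1 ± 15.4 CPM in monocytes. The 4 pop4 libraries (68.3, 95.4, 82.8 and 60.7 CPM) were all above the monocyte maximum of 60.1 CPM, but the difference between pop4 and monocytes was 1.02 (SE 0.54, edgeR adjusted p = 0.263). Insig1 averaged 23.6 ± 2.39 CPM in pop1, 36.8 ± 24.3 CPM in pop2, 27.3 ± 6.67 CPM in pop4 and 15.4 ± 9.23 CPM in pop3, against 12.8 ± 7.16 CPM in monocytes. Scap averaged 36.5 ± 21.7 CPM in adipose and 21.8 ± 10.9 CPM in monocyte libraries, and Stard4, which carries cholesterol through the cytosol, 47.7 ± 34.2 CPM in adipose and 45.6 ± 21.2 CPM in monocyte libraries. The summed level of the 5 genes was 205 ± 68.7 CPM in adipose (n = 16) and 137 ± 34.5 CPM in monocyte libraries (SD, n = 9), and was 204 ± 58.9 CPM in Tim4+ and 205 ± 81.4 CPM in Tim4- libraries.

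Pop4, the population with the highest sterol sums, was also set against monocytes by itself. Here 3 genes of the set passed, all higher in pop4, against 12.5% of all genes tested (7.16% higher, 5.3% lower). Scd1 differed by 8.01 (SE 0.65, edgeR adjusted p = 1.78e-08), Cyp51 by 2.03 (SE 0.48, adjusted p = 0.00550) and Lss by 3.36 (SE 1.0, adjusted p = 0.0291). The 4 pop4 libraries of Cyp51 (87.6 to 177 CPM) were all above the 9 monocyte libraries (13.2 to 67.2 CPM, median 33.7 CPM). No gene that was lower in adipose macrophages as a whole passed in pop4, and that difference between populations was not tested here. In all, 23 of 30 differences were positive, with a median of 0.61 against -0.04 over all genes.

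Cyp51 and Scd1 passed this comparison in each of 6 alternative settings and each of 13 fits without 1 library (highest edgeR adjusted p 0.0494 for Cyp51). The Lss call was lost without pop4 CD 7 (2.25, adjusted p = 0.263), pop4 HFD 3 (0.102), monocyte HFD 1 (0.0809), HFD 2 (0.0658) or HFD 3 (0.0720). Of the 20 proliferation genes, 19 were higher in pop4 than in monocytes, against 7.16% of all genes tested. Their sums were 1699 to 2508 against 121 to 271 CPM, and their part in these differences was not tested.

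Diet was compared within each population and as a mean over the 4 adipose populations. For the mean, 1 gene of the set passed, Acly, lower in HFD by -0.55 (SE 0.16, edgeR adjusted p = 0.0490), against 5.34% of all genes tested (1.67% higher, 3.67% lower). Acly had 166 and 283 CPM in HFD and 275 and 199.6 CPM in CD libraries of pop1, and 75.8 and 80.8 CPM in HFD and 314 and 229 CPM in CD libraries of pop2. It had 198 and 211 CPM in HFD and 212 and 213 CPM in CD libraries of pop4, and 126 and 218 CPM in HFD and 234 and 185 CPM in CD libraries of pop3. The low libraries were the 2 HFD libraries of pop2, while HFD and CD overlapped in pop1 and pop3 and lay close together in pop4. Without both pop2 HFD libraries the mean difference was -0.12 (adjusted p = 0.791). Of 10 macrophage genes 3 were also lower in HFD in this comparison and none was higher. Lyz2, which encodes lysozyme, differed by -0.61 (edgeR adjusted p = 4.23e-05), Cd68 by -0.94 (4.08e-04) and Adgre1, which encodes F4/80, by -0.54 (0.00661), and their part in the Acly difference was not tested.

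The Acly call on the mean was also lost without any 1 of 12 of the 16 libraries (all except pop1 HFD 3, pop2 CD 8, pop3 HFD 3 and pop3 CD 8; edgeR adjusted p 0.0539 to 0.134). It was lost with RLE scaling (0.0584) and without the filter on low counts (0.0849). The number of called genes on the mean was 3 without pop2 CD 8. Among genes that missed the threshold on the mean, Pmvk had a difference of 1.73 (SE 0.56, adjusted p = 0.0781), with 58.2 ± 38.0 CPM in HFD and 25 ± 19.7 CPM in CD libraries (SD, n = 8 each). Lss had -1.49 (SE 0.82, adjusted p = 0.332), with negative values in each of the 4 adipose populations and in monocytes. All 4 HFD libraries of Tim4+ cells (3.37 to 10.1 CPM of Lss) were below all 4 CD libraries (22.52 to 37.9 CPM), whereas HFD and CD overlapped in Tim4- cells.

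In pop2 alone, 3 genes of the set were lower in HFD and none higher, against 4.19% of all genes tested (3.44% lower, 0.755% higher). Acly, with the values above, fell by 1.79 (SE 0.33, edgeR adjusted p = 0.00287). Msmo1 was lower by -2.98 (SE 0.71, adjusted p = 0.0178), with 19.4 and 28.5 CPM in HFD and 229 and 149 CPM in CD libraries. Nsdhl was lower by -6.27 (SE 1.65, adjusted p = 0.0332), with 0 and 1.17 CPM in HFD and 10.4 and 78.9 CPM in CD libraries. HFD and CD did not overlap for any of these 3 genes, and with Nsdhl at or near 0 in HFD its fitted size depends on a few counts.

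Other measures moved with diet in pop2. Of 10 macrophage genes, Cd68 (-2.04, edgeR adjusted p = 3.03e-04), Lyz2 (-0.79, adjusted p = 0.00181) and Adgre1 (-0.88, adjusted p = 0.0276) were lower in HFD and none was higher. Of all genes tested, 3.44% were lower and 0.755% higher. The 10 macrophage genes summed to 4599 and 4717 CPM in HFD and 6951 and 6527 CPM in CD libraries. The HFD libraries held 4479780 and 3752840 counts, the fewest of all 25, against 4730280 and 5862770 counts in the CD libraries. Their TMM factors were 1.13 and 1.15 against 0.959 and 0.979, and their receptor background was 490 and 686 CPM in HFD against 388 and 398 CPM in CD libraries. The part of these in the pop2 differences was not tested.

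With 2 libraries on each side these pop2 calls rest on the spread shared with the other groups. The Acly call held without each of the 4 libraries, Msmo1 was lost without HFD 2 (edgeR adjusted p = 0.107) or HFD 3 (0.0834), and Nsdhl without HFD 2 (0.165), HFD 3 (0.0627) or CD 8 (0.222), and none passed when pop2 was fitted alone (0.287 to 0.321). The 7 fatty acid enzymes all had negative differences in pop2, with a median of -0.83 against 0.30 over all genes, and their sums of 224 and 234 CPM in the HFD libraries were the lowest of all 25 libraries, against 428 and 617 CPM in the CD libraries.

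**Figure D5:**
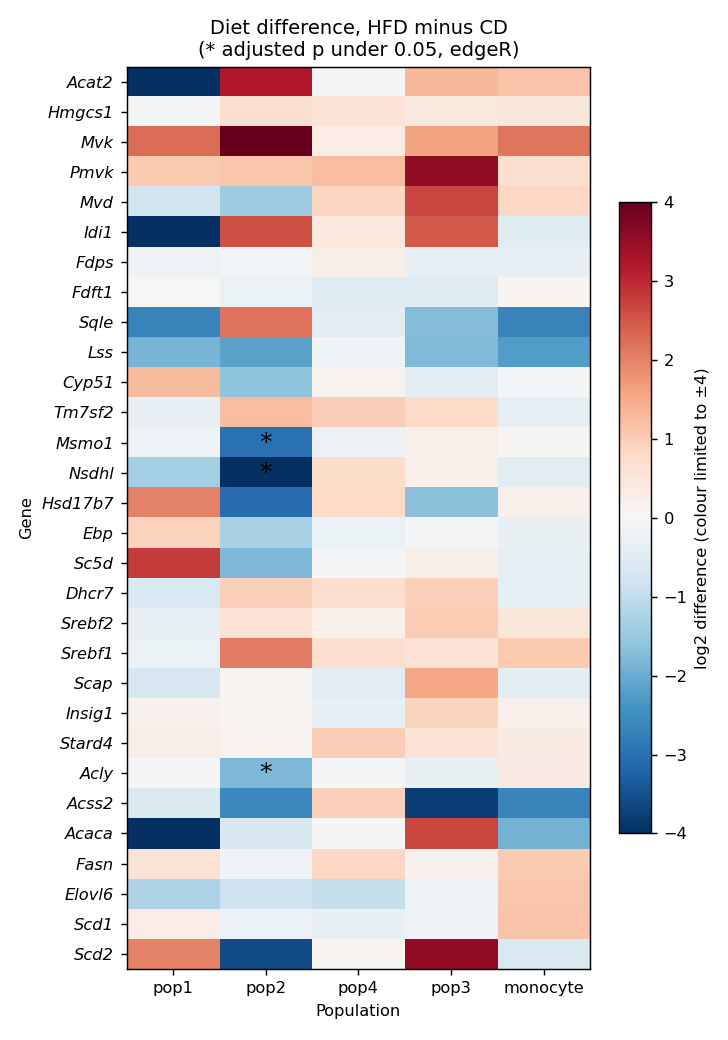
Log2 difference of each gene between HFD and CD (HFD minus CD, colour limited to 4 in either direction) in each population. Stars mark an edgeR adjusted p under 0.05. The 3 stars, on Msmo1 (-2.98), Nsdhl (-6.27) and Acly (-1.79), all stand in pop2.

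In the other populations no gene of the set passed edgeR's test for diet, against 0.436% of all genes tested in pop1 (0.0531% higher, 0.383% lower), 0.0354% in pop4 (all lower), 0.0943% in pop3 (0.0825% higher, 0.0118% lower) and 0.0059% in monocytes (1 gene, higher). By an unadjusted edgeR p under 0.05 there were 1 gene in pop1, 0 in pop4, 3 in pop3 and 2 in monocytes. DESeq2 called 1, 0, 2 and 1 in the same order, against 4.42%, 0.782%, 4.31% and 0.842% of all genes it tested. The differences with the lowest p were Acaca in pop1 (-4.14, SE 1.41, edgeR adjusted p = 0.237), Acss2, the cytosolic acetyl-CoA synthetase, in pop3 (-3.77, SE 1.19, adjusted p = 0.217) and Acss2 in monocytes (-2.63, SE 0.86, adjusted p = 0.490). Acss2 in monocytes had 4.49, 7.58 and 2.54 CPM in HFD libraries, against 30.7, 34.8, 16.8, 5.77, 23.3 and 69.7 CPM in CD libraries, so all but 1 CD library were above all HFD libraries. Without monocyte HFD 1, edgeR called 1 gene in monocytes.

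Sqle was at 15.8, 0 and 0 CPM in the HFD monocytes and at 17.5 to 45.4 CPM in the 6 CD monocyte libraries (difference -2.67, SE 1.26, edgeR adjusted p = 0.709). The groups did not overlap, yet the difference did not pass. Srebf1 in monocytes had 38.9, 29.1 and 25.7 CPM in HFD libraries and 23.6, 17.5, 11.0, 8.28, 11.7 and 18.8 CPM in CD libraries, again without overlap, and its difference of 1.05 (SE 0.54, edgeR adjusted p = 0.765) did not pass either. Whether diet acted otherwise in Tim4+ than in Tim4- cells was tested as an interaction, and no gene of the set passed, against 0.637% of all genes tested (0.0649% higher, 0.572% lower). By an unadjusted edgeR p under 0.05 there were 4 genes, and DESeq2 called 2, against 3.25% of all genes it tested. Of the 30 interaction differences 24 were negative, with a median of -0.43 against 0.12 over all genes.

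Other genes of the sterol pathway that are not in the set gave further values. Of 12 such genes, 1 was higher and 4 were lower in adipose macrophages than in monocytes. Of all genes tested 37% were called there, 18.5% in each direction, so this count by itself is no result about the list. Npc2, which carries cholesterol out of lysosomes, had 492.8 ± 62.6 CPM in adipose (n = 16) and 678 ± 44.6 CPM in monocyte libraries (SD, n = 9; difference -0.46, SE 0.08, edgeR adjusted p = 6.97e-05), and was also lower in pop4 than in monocytes, by -0.52 (SE 0.11, adjusted p = 0.00271). Ggps1, which makes geranylgeranyl diphosphate, had 116 ± 51.9 CPM in adipose and 253 ± 44.9 CPM in monocyte libraries, a difference of -1.26 (SE 0.23, adjusted p = 2.73e-04). Lbr, a protein of the nuclear envelope with sterol reductase activity, differed by -0.72 (SE 0.18, adjusted p = 0.00427). In pop4 set against pop3 and for mean adipose diet, 0 of these 12 genes passed edgeR's test, against 6.57% and 5.34% of all genes. At an unadjusted edgeR p under 0.05 there were 2 and 1.

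Of 20 other genes of fatty acid metabolism, 6 were higher and 5 lower in adipose macrophages than in monocytes (18.5% of all genes in each direction). Fads1, a desaturase of polyunsaturated fatty acids, had 78.6 ± 43.1 CPM in adipose (n = 16) and 2.42 ± 4.58 CPM in monocyte libraries (SD, n = 9; difference 6.39, SE 1.12, edgeR adjusted p = 1.48e-04). Me1, which makes NADPH for fatty acid synthesis, differed by 5.44 and Thrsp by 4.40, while the elongase Elovl1 differed by -2.37 and the triglyceride synthase Dgat2 by -2.84. In Tim4+ against Tim4- cells, 1 of the 20 was higher and 3 were lower (7.26% and 7.79% of all genes tested). Mlxipl, which encodes the glucose-sensing factor ChREBP, was higher by 4.04 (SE 0.76, adjusted p = 0.00103), with 27.7 ± 21.5 CPM in pop1 and 1.63 ± 0.440 CPM in pop2 (SD, n = 4 each), against 0.463 ± 0.591 CPM in Tim4- libraries (n = 8). Elovl1, Elovl5 and the acyl-CoA synthetase Acsl3 were lower, Acsl3 with 32.6 ± 26.4 CPM in Tim4+ and 142 ± 50.7 CPM in Tim4- libraries. Elovl5 was the only one called for diet, lower in HFD over adipose populations by -0.68 (SE 0.14, adjusted p = 0.00649) and in pop1 by -1.54 (SE 0.29, adjusted p = 0.0159).

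Of 8 genes of cholesterol export, storage and the sterol-sensing receptor LXR, 3 were higher and none lower in Tim4+ than in Tim4- cells (7.26% and 7.79% of all genes tested). Abca1 differed by 1.38, Mylip by 2.30 and Apoe by 1.31 (edgeR adjusted p of 0.00102, 2.71e-05 and 4.67e-06). In pop4 set against pop3, 4 of the 8 were lower and none higher (4.25% and 2.32% of all genes). These were Abca1 by -2.22, Mylip by -2.90, Apoe by -1.76 and Ch25h by -7.18 (adjusted p of 0.00104, 4.00e-04, 3.03e-05 and 0.0184), and Ch25h was at or under the floor of 3 counts in every pop4 library. In adipose macrophages set against monocytes, Abca1 (2.22), Apoe (0.94) and Ch25h (6.02) were higher and Soat1 (-1.30), which stores cholesterol as ester, was lower (18.5% of all genes in each direction). In pop4 set against monocytes, Mylip (-3.04), Apoe (-0.60) and Soat1 (-1.18) were lower and none of the 8 was higher (5.3% and 7.16% of all genes).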

How the data were processed

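Whole-number counts per gene were deposited as 1 table of 24537 gene models by 25 libraries. The submitters' processing notes name STAR 2.5.3a, HOMER and the build mm10, and the treatment of multi-mapping and strand is not given in the sources used here. The authors' counts were used as deposited, with no column left over. Genes with low counts were removed with filterByExpr (16961 kept) and tested with edgeR 4.0.16 (quasi-likelihood F test, TMM scaling, R 4.3.3) on 10 group means, with Benjamini-Hochberg adjustment over all genes tested and a threshold of 0.05. The SE was taken as the size of the log2 difference over the root of F. The procedure was tested on simulated data with 200 changed genes. The simulation used less spread between libraries than was fitted here and changed only genes with mean counts well above the floor. It cannot show how the procedure serves genes near the floor. CPM use TMM-scaled library sizes. Plots and promoter searches used Python 3.11.15.

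The 30 genes and the other lists were chosen with earlier results of these data known. Values of each adipose library are given for genes past the threshold in any comparison, except Tm7sf2, Mvd and Idi1, which have ranges. They are also given for Hmgcs1, Sqle and Srebf1. Libraries of the same number and diet showed correlations of deviations of -0.0393 to 0.0734 over 40 pairs between populations, monocytes included. No block was used in the main fit. With 2 libraries in each adipose group, these correlations cannot show whether numbers pair libraries. Alternatives were RLE size factors, DESeq2 1.42.0, no filter, a replicate block, the receptor background as a covariate, the compared groups alone, counts summed over populations, selected monocyte libraries and leaving out each library. 5 further settings were chosen after seeing the data. Some results of the list of other sterol pathway genes are not reported here.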

Additional observations from a re-analysis of the deposited data

Results flagged for a closer look

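Among the 6 CD monocyte libraries, each of the 30 genes was examined for a library far from the others, and 3 such values were found. By chance the rule flags about 1 in 20 groups only if values are normally distributed. CPM of low genes need not be, and Lss and Hsd17b7 reached 0 CPM, so 3 values cannot be set against that rate. Lss stood at 10.6 CPM in monocyte CD 2, with the next library at 2.82 CPM. Hsd17b7 stood at 20.8 CPM in monocyte CD 7, with the next at 6.05 CPM. Dhcr7 stood at 13 CPM in monocyte CD 1, with the next at 4.69 CPM. The 3 values came from 3 different libraries.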

How the results depend on the processing

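Over all results and alternatives, 627 values stayed on the same side of the threshold or within the same range, 98 lost the threshold, 53 counts or sums moved and 0 reversed. Scd1 and Cyp51 passed in every alternative run for the comparisons that called them. DESeq2 called 9 genes in Tim4+ against Tim4- cells (all 4 edgeR calls among them), 1 in pop1 against pop2, 2 in pop4 against pop3, 5 in pop4 against monocytes, 4 for mean adipose diet, 1, 6, 2 and 1 for diet in pop1, pop2, pop3 and monocytes, and 2 for the interaction. With the replicate block, where the labels do not say what the numbers share, 6 genes were called in adipose macrophages against monocytes and 0 in pop4 against pop3. With the background covariate the counts were 2 for adipose macrophages against monocytes, 1 for Tim4+ against Tim4-, 0 for pop4 against pop3 and 0 for mean adipose diet. With the compared groups alone they were 2 for Tim4+ against Tim4-, 0 for pop4 against pop3, 0 for mean adipose diet and 0 for diet in pop2, where fewer libraries set the spread. RLE scaling, no filter and summed counts each gave 0 for mean adipose diet. Monocyte libraries with adipose title numbers alone gave 6 for adipose macrophages against monocytes.

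In settings chosen after seeing the data, Tim4+ against Tim4- gave 1 call without both pop2 HFD libraries, 2 against pop3 alone and 1 among CD groups, and mean adipose diet gave 0 without both pop2 HFD libraries. Without 1 library at a time, calls ranged from 9 to 12 (adipose macrophages against monocytes), 2 to 7 (Tim4+ against Tim4-), 0 to 1 (pop1 against pop2), 0 to 1 (pop4 against pop3), 2 to 3 (pop4 against monocytes), 0 to 3 (mean adipose diet), 1 to 4 (diet in pop2) and 0 to 1 (diet in monocytes), and stayed at 0 for diet in pop1, pop4 and pop3 and for the interaction. The fatty acid sum without its most abundant gene gave log2 ratios of 0.82 (0.29 with it) for adipose macrophages against monocytes and 0.79 (0.30 with it) for pop4 against monocytes. RLE scaling moved the median log2 difference of all genes from 0.19 to 0.35 for adipose macrophages against monocytes and from 0.14 to 0.26 for Tim4+ against Tim4-. Except as stated here or beside a result, the cause of these changes was not tested. Libraries of 200 cells, 2 to a group, limit what low genes such as Idi1, Mvk and Acat2 can show.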
